A study of Mus musculus with 7 samples.

Results

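The 8 *Sox* genes described here are *Sox4*, *Sox11* and *Sox12* of the SoxC subfamily, *Sox1* and *Sox2* of SoxB1, *Sox5* and *Sox6* of SoxD, and *Sox9* of SoxE, among 21938 protein-coding genes on mm10 (GRCm38). A ChIP-seq peak was counted for a gene when its centre lay in the gene (GENCODE M21) or within 50 kb of it. This gave 2 of 1946 Chd7 peaks in WT granule neuron progenitors (GNPs), 0 of 96 Chd7 peaks in *Chd7*-deficient GNPs and 36 of 31400 H3K27ac peaks in WT GNPs. The same windows held 14 of 17030 Top2b peaks in WT cerebellar granule neurons (CGNs) and 27 of 21505 Top2b peaks in *Chd7*-deficient CGNs.

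GNPs were isolated from untreated P7 pups of the C57BL/6 strain (C57BL/6N in the study's methods), and CGNs were obtained by keeping GNPs in culture for 48 h in the absence of SHH. *Chd7*-deficient cells, labelled Chd7 KO, came from Atoh1-Cre::Chd7 f/f mice, and WT denotes Chd7 f/f mice in the study's text. Atoh1-Cre deletes the floxed gene in the granule cell lineage, and the study describes Chd7 protein that remained in the posterior lobe, where it considers lower recombination probable. The sex of the pups was not distinguished. Peaks were available for 5 of 7 libraries, 1 per condition, so that no difference between libraries could be set against the variation between animals, and no test between conditions was made. Whether pups were pooled is not given in the sources used here.

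SOX proteins are transcription factors that bind DNA through an HMG box with the core letters ACAAT, and they bend it. SoxC factors are best known for the switch from dividing progenitors to postmitotic neurons, SoxB1 factors for keeping neural stem cells undifferentiated, SoxD factors for partnering other SOX proteins although they lack a transactivation domain of their own, and Sox9 for stem cells and glia. Chd7 is an ATP-dependent chromatin remodeller that is mutated in CHARGE syndrome, H3K27ac is an acetylation mark of active promoters and enhancers, and Top2b is a type II DNA topoisomerase found in postmitotic neurons.

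Near these genes, Chd7 was called at the *Sox11* promoter and at a site downstream of *Sox2*. The windows around both summits (300 bases, GRCm38) are shown because they are the only Chd7 peaks of WT GNPs in the 8 gene windows. *Sox11* is read on the minus strand, chr12:27342882-27343181, and *Sox2* on the plus strand, chr3:34664229-34664528. Capitals mark E-boxes (CANNTG on either strand), the letters bound by bHLH factors such as Atoh1 and Neurod1.
Sox11 Chd7 peak: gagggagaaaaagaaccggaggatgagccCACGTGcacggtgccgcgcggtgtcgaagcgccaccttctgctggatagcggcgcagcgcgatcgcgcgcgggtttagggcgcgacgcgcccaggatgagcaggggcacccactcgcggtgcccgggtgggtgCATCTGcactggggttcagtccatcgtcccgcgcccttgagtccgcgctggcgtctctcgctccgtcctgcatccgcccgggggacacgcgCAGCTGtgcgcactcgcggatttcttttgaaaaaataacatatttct
Sox2 Chd7 peak: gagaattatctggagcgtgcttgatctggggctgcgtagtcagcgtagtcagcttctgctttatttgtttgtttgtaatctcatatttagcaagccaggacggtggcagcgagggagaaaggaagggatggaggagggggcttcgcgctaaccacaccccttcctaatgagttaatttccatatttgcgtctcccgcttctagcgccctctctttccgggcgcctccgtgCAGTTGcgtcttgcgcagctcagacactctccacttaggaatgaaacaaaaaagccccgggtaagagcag

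The *Sox11* peak (chr12:27342545-27343426, 882 bp) had its summit 0.458 kb upstream of the gene's start. Its pileup was 22 fragments (95% exact Poisson interval, 13.8 to 33.3) over a local background of 3.44, a fold enrichment of 5.18 with a −log10 q-value of 6.88. This fold enrichment ranked 239 among the 1946 WT peaks, whose median was 4.07. The peak lay inside a 6904-bp H3K27ac peak. All Poisson intervals given here cover counting error only.

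The *Sox2* peak (chr3:34664242-34664595, 354 bp) had its summit 13.974 kb downstream of the start of *Sox2*, in *Sox2ot*, the long noncoding RNA gene that overlaps *Sox2*. Here the pileup was 18 fragments (10.7 to 28.4) over a background of 3.10, the fold enrichment 4.63 and its rank 506. The −log10 q-value was 4.76, below the stricter threshold of 5 at which the *Sox11* peak alone was retained. A gap of 10 bp separated this peak from the nearest H3K27ac peak, so that 1 of the 2 Chd7 peaks overlapped H3K27ac (50%, Wilson interval 9.45 to 90.5), against 77.9% of all WT Chd7 peaks. In pileup the *Sox11* and *Sox2* peaks did not differ beyond their counting intervals.

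**Figure D1:**
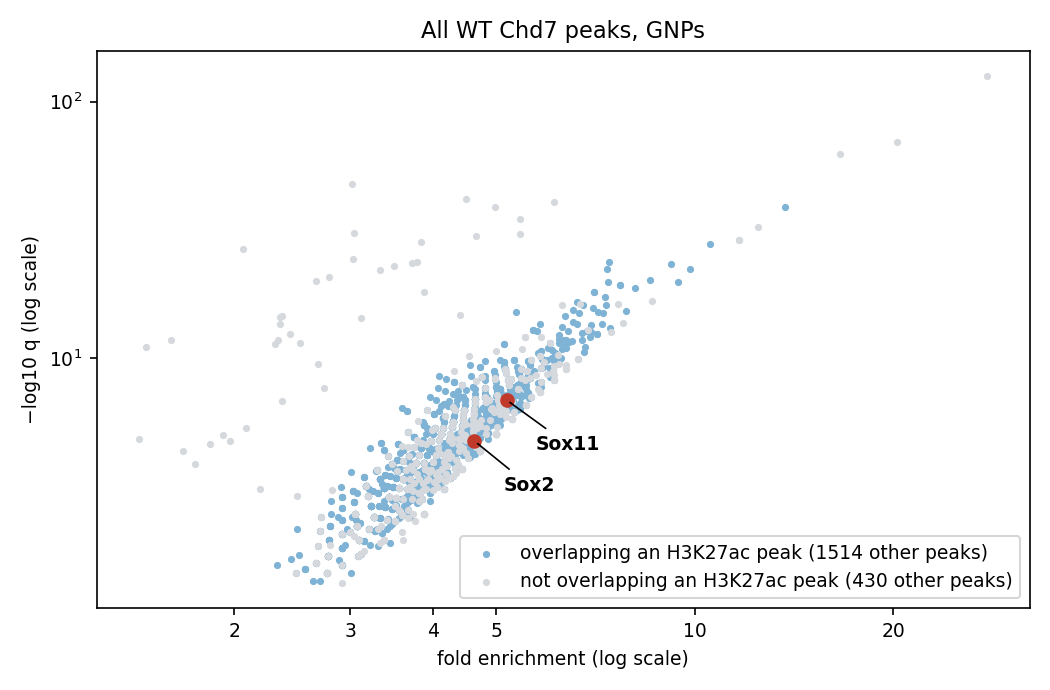
Fold enrichment (x axis, log scale) and −log10 q-value (y axis, log scale) of the 1946 WT Chd7 peaks, with those overlapping H3K27ac in blue and the others in grey. The peaks near *Sox11* (5.18) and *Sox2* (4.63) lie above the median fold enrichment of 4.07 and well below the strongest peaks.

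No Chd7 peak was called near any of the 8 genes in *Chd7*-deficient GNPs, the library that serves as the antibody control. With the lower background of this library (0.863 times that of WT, from the lowest local backgrounds), 14 fragments at *Sox11* and 13 at *Sox2* would have been needed to reach the lowest −log10 p-value called in it, 5.76. Signal under these pileups is not visible in a peak table.

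Thus 2 of 8 genes had a WT Chd7 peak within 50 kb, while 14.3% of all protein-coding genes did, and 0 of 8 had one in *Chd7*-deficient GNPs, against 0.205% of all genes. Among genes shorter than 10 kb the count was 2 of 6, beside 11.5%. For genes longer than 500 kb it was 0 of 2, beside 34.8%. At a start site (peak within 1 kb of it) the count was 1 of 8, *Sox11*, beside 4.17% of all genes. Among the 5 genes with an acetylated start site it was again *Sox11* alone within 50 kb, beside 21.4%. With so few genes these shares were not told apart from the background.

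Beyond these windows the Chd7 peaks were distant. The nearest WT peak lay 268.5 kb upstream of *Sox1* (fold enrichment 5.53, overlapping H3K27ac), 767 kb from *Sox9*, 1180 kb from *Sox6*, 2172 kb from *Sox12*, 2292 kb from *Sox4* and 2834 kb from *Sox5*. The median over all protein-coding genes was 411 kb, with quartiles of 122 and 1004 kb. *Sox4*, *Sox12* and *Sox5* were therefore farther from a Chd7 peak than 91.8%, 91.1% and 94.1% of genes. A peak within 500 kb was found for 3 of 8 genes, beside 55.2% of all.

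Fixed sequence motifs were searched on both strands in the 200 bases around each summit. An E-box was present in both *Sox* windows and in 65.8% of the 1902 windows of WT Chd7 peaks on chromosomes 1 to 19, X and Y. The *Sox11* E-box read CAGATG on the opposite strand, a form held by 23.7% of windows and absent from that of *Sox2*. Neither 200-base window held CAGCTG (19.4% of windows), the SOX letters ACAAAG (13.2%) or ACAAT (17.9%), the NFI letters TTGGCA (18.8%) or the ZIC letters CAGCAGG (9.94%). The 300 bases printed for *Sox11* hold 3 E-boxes, and the CAGCTG among them lies outside the 200 bases searched. GC content was 71% at *Sox11*, with 27 CpG, and 53% at *Sox2*, with 12 CpG, while the median of all windows was 56% and 6 CpG. In the *Sox2* window 29% of bases were repeat-masked, and none in that of *Sox11*.

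H3K27ac, which the study used to locate active promoters and enhancers, was unevenly spread over the 8 genes. A peak lay within 1 kb of a start site for 5 of 8 genes, *Sox4*, *Sox11*, *Sox12*, *Sox5* and *Sox9*, beside 46.5% of all genes. Within 50 kb it was 6 of 8, with *Sox2* added, beside 73.5%. The 36 peaks had a median fold enrichment of 3.63 against 4.35 for all H3K27ac peaks, and *Sox5* and *Sox9* held 25 of them. A fold enrichment over 10 was reached by 5 of the 36, which lay at *Sox4*, *Sox11*, *Sox12*, the neighbour of *Sox12* and *Sox5*, while 24 were under 5. Over all H3K27ac peaks these shares were 15.2% and 59.0%.

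Start sites of the 3 SoxC genes carried broad H3K27ac peaks. At *Sox4* (chr13:28948919-28953713) the peak chr13:28950026-28953665 spanned 3640 bp with a pileup of 129.88, which corresponds to 138 fragments (116 to 163), and a fold enrichment of 13.2. For *Sox11* (chr12:27334264-27342574) the values were 6904 bp, 130.82, 139 fragments (117 to 164) and 14.7. *Sox12* (chr2:152393611-152398063) had 2931 bp, 142.12, 151 fragments (128 to 177) and 22.8. The 3 fragment numbers did not differ beyond their intervals, and the order of the fold enrichments was the inverse of that of the local backgrounds, 8.90, 7.98 and 5.28. H3K27ac pileups were multiples of 0.941 and were divided by it to obtain fragments.

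Among the 10211 genes with an acetylated start site, the widths of these peaks stood at percentiles 99.8 (*Sox11*), 98.2 (*Sox4*) and 96.5 (*Sox12*), beside a median of 1077 bp. Their fold enrichments stood lower, at percentiles 79.6, 74.7 and 94.4, where the median was 8.48. *Sox11* and *Sox4* were thus set off from most genes more by width than by height.

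**Figure D2:**
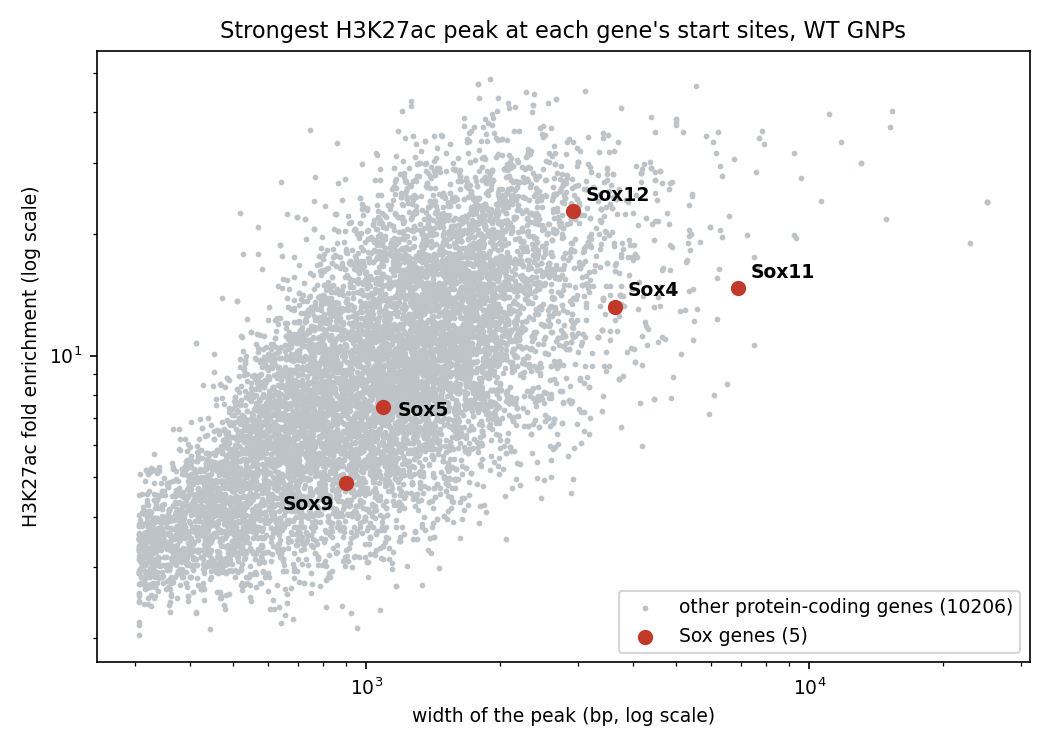
Width (bp, log scale) and fold enrichment (log scale) of the strongest H3K27ac peak at the start sites of each protein-coding gene with one, in WT GNPs. *Sox11*, at 6904 bp, *Sox4* and *Sox12* lie at the wide edge of the cloud, whereas *Sox5* and *Sox9* lie within it at fold enrichments of 7.45 and 4.86.

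The 250 bases upstream of the RefSeq starts of *Sox4* and *Sox12* are shown for comparison with the *Sox11* window, since both genes had acetylated start sites without a Chd7 peak. *Sox4* is read on the minus strand from chr13:28953700-28953949, and *Sox12* on the minus strand from chr2:152398047-152398296, with E-boxes in capitals (RefSeq, GRCm38.p6). RefSeq upstream sequences were found for 7 of the 8 genes, all except *Sox9*.
Sox4 upstream: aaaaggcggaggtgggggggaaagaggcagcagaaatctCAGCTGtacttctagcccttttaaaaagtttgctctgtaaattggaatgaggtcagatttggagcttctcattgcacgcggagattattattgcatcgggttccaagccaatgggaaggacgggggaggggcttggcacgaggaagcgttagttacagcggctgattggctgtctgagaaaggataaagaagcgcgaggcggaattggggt
Sox12 upstream: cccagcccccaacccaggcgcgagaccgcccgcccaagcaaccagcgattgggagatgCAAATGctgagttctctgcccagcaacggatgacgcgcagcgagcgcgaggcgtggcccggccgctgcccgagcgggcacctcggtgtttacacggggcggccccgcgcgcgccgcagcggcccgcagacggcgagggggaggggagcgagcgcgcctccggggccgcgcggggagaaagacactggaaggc

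The *Sox4* sequence held CAGCTG, as 13.0% of 32851 such upstream sequences did, and the *Sox12* sequence a CAAATG E-box. An E-box of any form was present in 66.2% of upstream sequences. GC content was 50.8% at *Sox4* and 74.4% at *Sox12*, with 11 and 35 CpG, against medians of 52.4% and 6 CpG. *Sox11* had 58% and 17 CpG in the same 250 bases, with 2 E-boxes, 1 of them CAGCTG as at *Sox4*. The SOX and ZIC letters had no match in any of the 3 SoxC sequences. The NFI letters TTGGCA had 1 match, in the *Sox4* sequence, and were present in 12.3% of upstream sequences.

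Further H3K27ac was found upstream of each SoxC gene. *Sox4* had a second strong peak, chr13:28958063-28960328 (2266 bp, fold enrichment 9.71, 133 fragments), 5.365 kb upstream of its start. Upstream of *Sox11*, 2 weaker peaks lay at 14.698 and 15.266 kb, with fold enrichments of 5.25 and 2.49. The peaks at −12.6 and −16.5 kb from *Sox12*, with fold enrichments of 3.17 and 12.8, were nearer to the start of *Zcchc3*. The stronger had its summit in *Zcchc3*, 0.465 kb from that start, and was thus a start-site peak of *Zcchc3*. For the weaker, 4.394 kb from that start, the assignment to either gene cannot be told apart.

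Super-enhancers (SEs) are clusters of strongly acetylated enhancers near genes of cell identity. Here H3K27ac peaks no more than 12.5 kb apart were joined into 17539 regions and ordered by width times pileup, and the 612 regions past the point of slope 1 were taken as SE-like. They overlapped 4 of 8 genes, *Sox11* (rank 217), *Sox4* (319), *Sox5* (455) and *Sox12* (482), beside 4.18% of all genes. Among genes with an acetylated start site it was 4 of 5, beside 8.39%. The region on *Sox12* joined its start-site peak to the start-site peak of *Zcchc3*. A shorter joining distance kept *Sox4*, *Sox11* and *Sox5* but not *Sox12*. With start-site peaks left out only *Sox5* remained, and ranking by width times fold enrichment kept *Sox11* and *Sox12*. The shares of all genes under these alternatives are not given here, so that they show only which of the 4 genes were kept. The region on *Sox11* was the only 1 of the 4 that held a Chd7 peak. This count is not set beside the share over all 612 regions, so that it cannot be read as particular to *Sox11*.

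**Figure D3:**
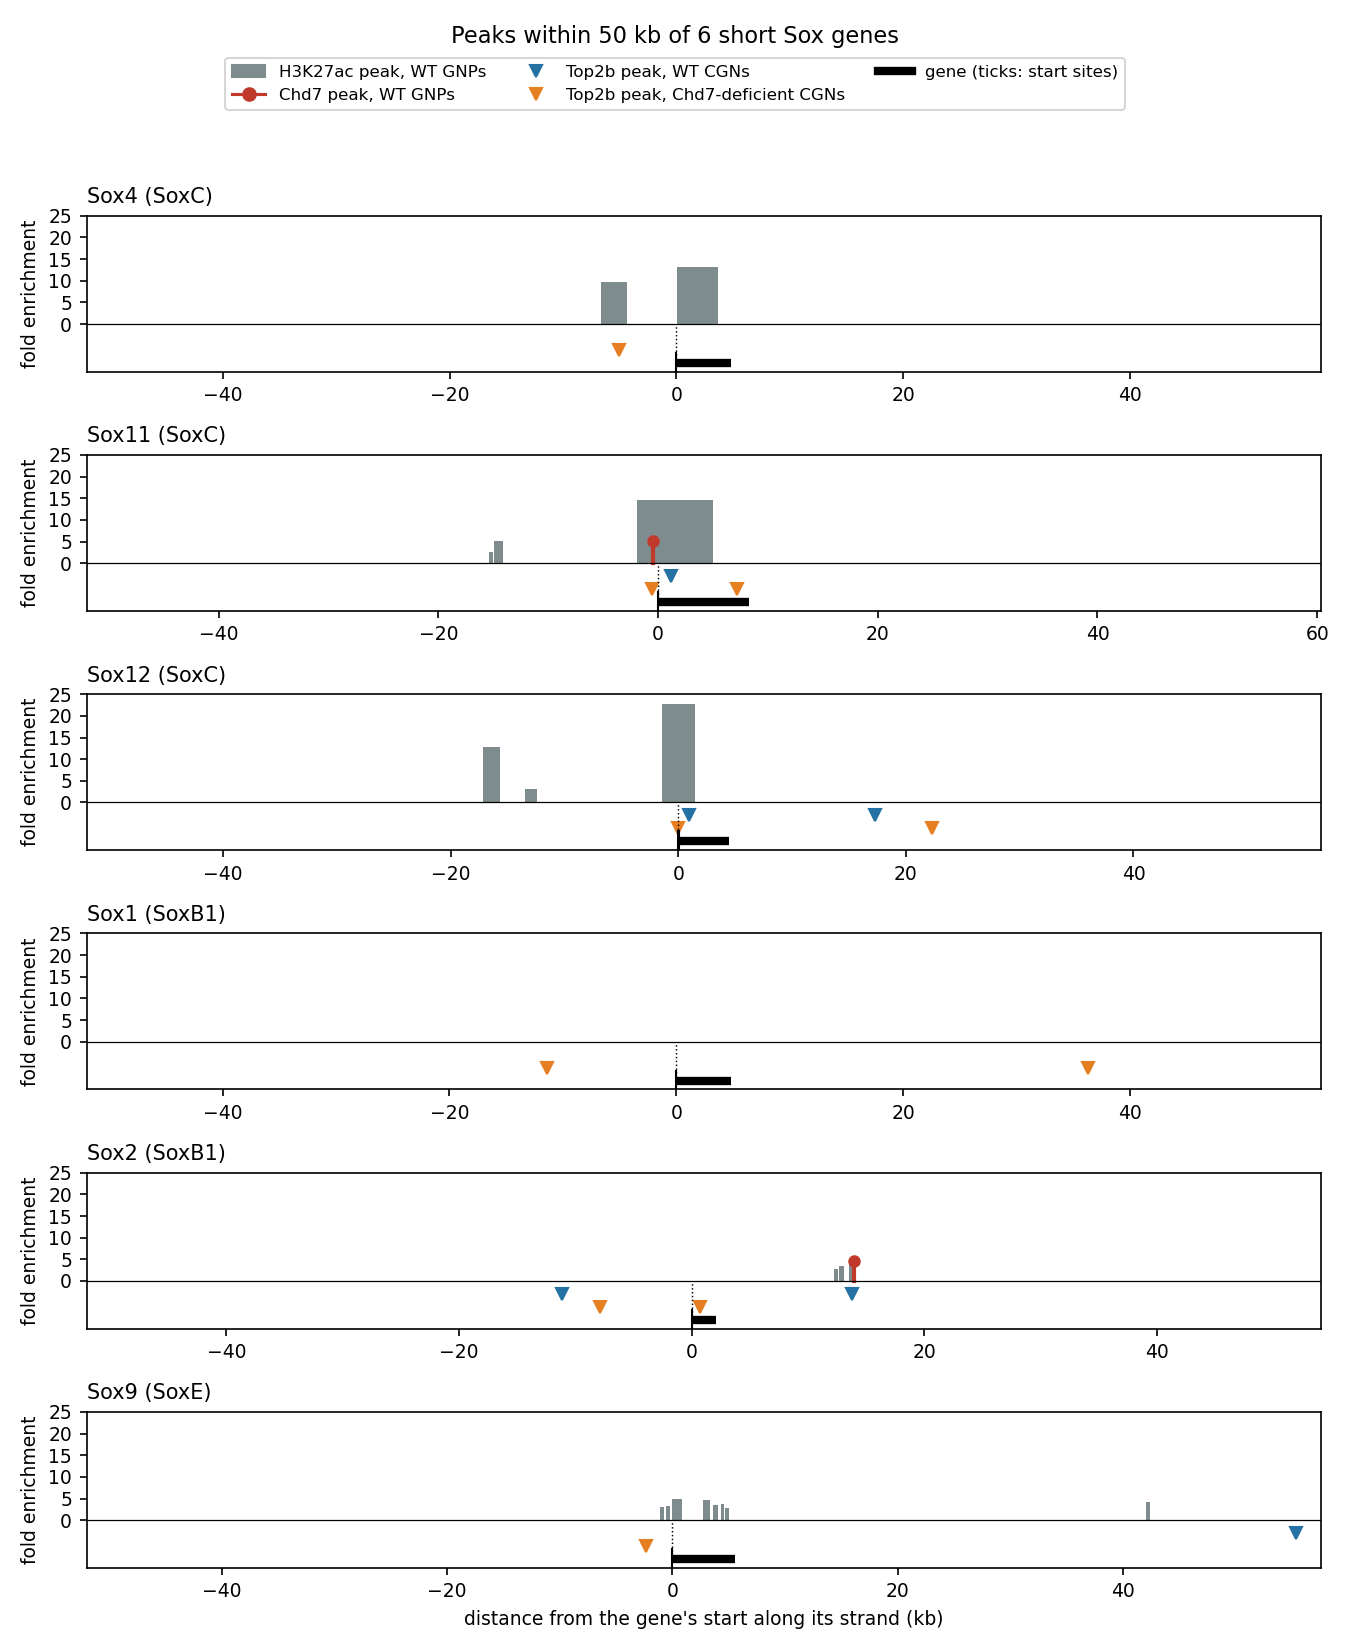
Peaks within 50 kb of the 6 short genes against distance from the gene's start (kb, downstream to the right). Grey bars are H3K27ac peaks and red pins Chd7 peaks of WT GNPs (height, fold enrichment), and triangles mark Top2b peaks of WT (blue) and *Chd7*-deficient (orange) CGNs, drawn at a fixed height. H3K27ac is highest at the SoxC starts (13.2 to 22.8), absent around *Sox1*, and near *Sox2* limited to 1.557 kb beside its Chd7 peak.

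The SoxB1 genes had little H3K27ac. *Sox1* (chr8:12395295-12400126) had 0 H3K27ac peaks in its window, the nearest lying 86.2 kb away. *Sox2* (chr3:34650405-34652461) had none at its start, but 3 weak peaks at 12.444, 12.928 and 13.615 kb downstream, with fold enrichments of 2.74, 3.46 and 4.04. The last of these ended 10 bp before the Chd7 peak. The 3 peaks lie in *Sox2ot*, and no gene of origin can be assigned from the peak tables.

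SoxD genes differed from each other. *Sox5* (chr6:143828425-144781977, 954 kb) had 17 H3K27ac peaks, 16 of them with the summit in introns, while *Sox6* (chr7:115470872-116038796, 568 kb) had 0, at none of its 13 annotated start sites. The nearest H3K27ac peak to *Sox6* lay 54.6 kb upstream, just beyond the window, in *1110004F10Rik* with a fold enrichment of 14.3. Of genes longer than 500 kb, 87.8% had an H3K27ac peak within 50 kb and 53.5% had one at a start site.

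The strongest acetylation of *Sox5* was intronic. The peak chr6:144153722-144156667 (2946 bp), 626.6 kb downstream of the start, reached a pileup of 180.71, 192 fragments (166 to 221), with a fold enrichment of 20.9. At the start itself the values were 34.82, 37 fragments (26.1 to 51.0) and 7.45, so that the intronic peak exceeded the start-site peak beyond the counting intervals. A further peak at 330.0 kb had a fold enrichment of 9.09, and a peak next to a group of internal start sites at 572.4 to 572.5 kb one of 2.91. The remaining intronic peaks ranged from 2.79 to 6.73.

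The summit of this intronic peak (300 bases, minus strand, chr6:144155238-144155537, GRCm38) is shown because it was the most enriched site within any of the 8 genes apart from the *Sox12* start. Capitals mark ACAAT on either strand.
Sox5 strongest intronic H3K27ac peak: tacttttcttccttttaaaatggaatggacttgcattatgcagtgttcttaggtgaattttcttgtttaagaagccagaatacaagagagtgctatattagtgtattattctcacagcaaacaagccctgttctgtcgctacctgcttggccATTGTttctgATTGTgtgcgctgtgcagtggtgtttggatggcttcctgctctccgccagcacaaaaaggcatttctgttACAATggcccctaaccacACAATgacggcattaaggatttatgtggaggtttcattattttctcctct

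It held 4 matches to ACAAT, where 31.6% of the 31395 H3K27ac summit windows of this length held any and 0.325% held 4 or more. Its GC content was 41.7%, below the median of 51.7%, and the part of base composition in the number of matches was not tested. A match is a match of letters and does not show binding. The choice of this window was made after its value was seen.

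**Figure D4:**
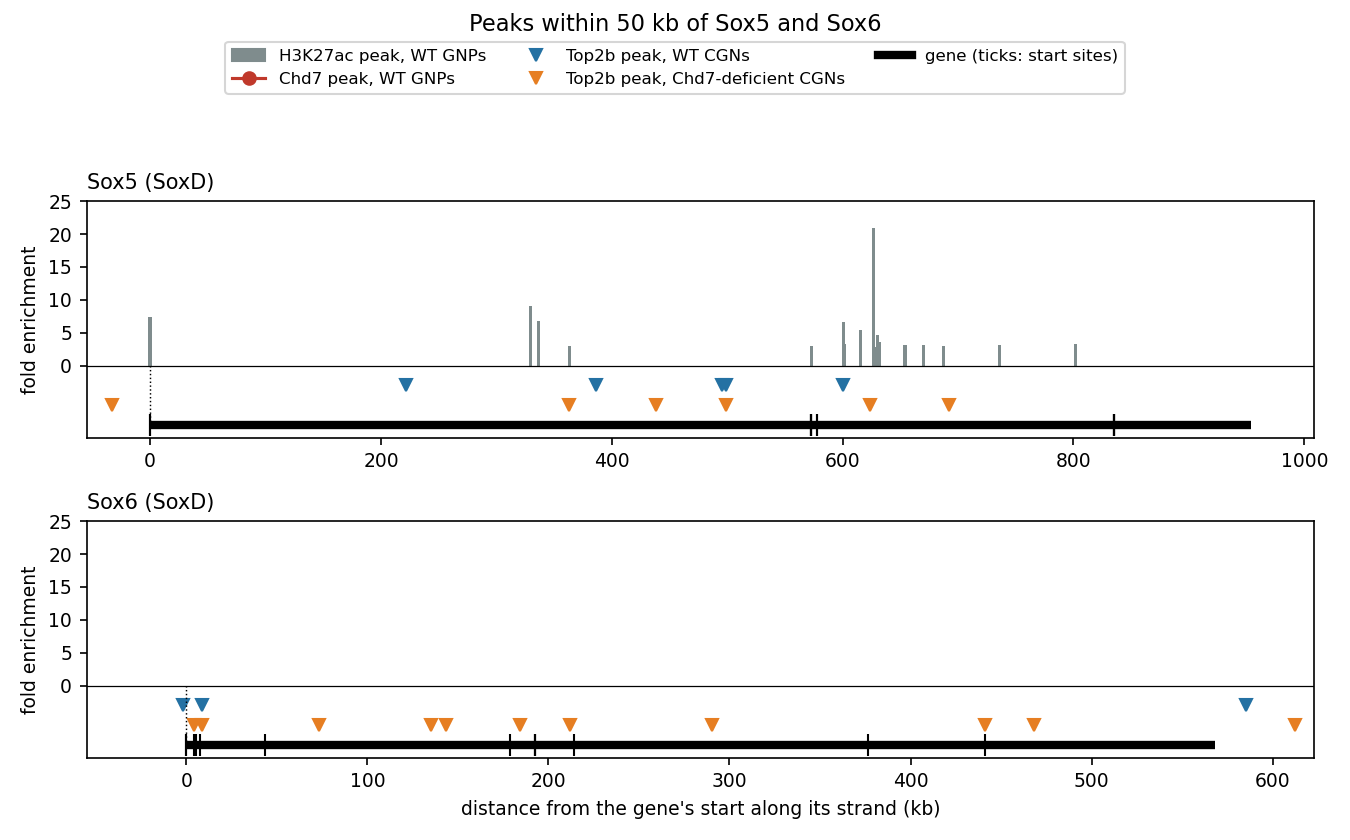
Peaks within 50 kb of *Sox5* and *Sox6* against distance from the gene's start (kb), drawn as in the map of the short genes, with ticks on the black bar at annotated start sites. *Sox5* has 17 H3K27ac peaks with the highest (20.9) far inside the gene, *Sox6* has 0, and neither has a Chd7 peak.

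*Sox9* (chr11:112782224-112787760) had 8 H3K27ac peaks, 7 of which lay on or directly beside the gene. The strongest, at 0.319 kb, had a pileup of 62.12, 66 fragments (51.0 to 84.0), and a fold enrichment of 4.86, and the next, over coding sequence at 3.112 kb, one of 4.61. By fragments the *Sox9* start was above that of *Sox5*, with intervals that meet at 51.0, whereas by fold enrichment it was below it, since its local background was above the 3.81 fragments at *Sox5*. Percentiles among acetylated start sites were 18.9 for *Sox9* and 41.7 for *Sox5*.

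Cell type markers were checked in the same H3K27ac library. All 8 GNP markers (*Atoh1*, *Pax6*, *Zic1*, *Zic2*, *Barhl1*, *Neurod1*, *Mycn* and *Gli1*) had an acetylated start site, with fold enrichments from 3.55 to 31.6. Of 6 markers of Bergmann glia and astrocytes, 3 did, *Fabp7*, *Slc1a3* and *Gfap*, from 3.53 to 7.84, and *Aqp4*, *Gdf10* and *Hopx* had none. The start-site values of *Sox9* (4.86) and *Sox5* (7.45) lay within both the glial range and the range of the GNP markers. Median values were 20.2 for the GNP markers and 6.54 for the 3 acetylated glial markers. The part of glial cells in the *Sox9* and *Sox5* values was not tested. Start sites were acetylated for 2 of 6 oligodendrocyte, 1 of 4 Purkinje, 2 of 4 interneuron and 1 of 4 microglial markers, at up to 7.30. Start-site peaks of GNP markers were 25227 bp wide at *Zic2*, 9334 at *Pax6*, 9248 at *Zic1*, 6588 at *Mycn* and 5975 at *Neurod1*. *Barhl1* (2886), *Atoh1* (1107) and *Gli1* (704) had narrower ones. SE-like regions overlapped *Pax6*, *Zic1*, *Zic2*, *Barhl1*, *Neurod1*, *Mycn* and *Pdgfra*, but not *Atoh1* or *Gli1*. Wide start-site peaks and SE-like regions were thus not particular to the SoxC genes. A Chd7 peak within 50 kb was found for 7 of the 8 GNP markers, 0 of the 6 markers of Bergmann glia and astrocytes, 1 of 6 oligodendrocyte markers (*Pdgfra*), 1 of 4 microglial markers (*Aif1*) and 0 of the Purkinje and interneuron markers, beside 14.3% of all genes.

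The other 12 *Sox* genes (*Sox3*, *Sox7*, *Sox8*, *Sox10*, *Sox13*, *Sox14*, *Sox15*, *Sox17*, *Sox18*, *Sox21*, *Sox30* and *Sry*) had 0 acetylated start sites and 0 Chd7 peaks. Of all protein-coding genes, 46.5% had an acetylated start site and 14.3% a WT Chd7 peak within 50 kb. The windows of the 12 genes held 24 H3K27ac peaks, 19 of them around *Sox15* and *Sox18*, and 15 and 16 Top2b peaks in WT and *Chd7*-deficient CGNs. Genes most like *Sox4* in the number and summed fold enrichment of H3K27ac and WT Chd7 peaks (percentile ranks over 21938 genes) were *Dyrk4*, *Basp1* and *Ccdc146*, but 72 genes lay within 1 percentile point. For *Sox11* they were *Klhl11*, *Lhx4* and *Cavin1*, at distances of 0.888, 1.49 and 1.53 points.

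Top2b, measured in CGNs and not used to choose the genes, was called near 6 of 8 genes in WT cells, beside 62.2% of all genes, and near 8 of 8 in *Chd7*-deficient cells, beside 71%. Both genotypes had a peak for 6 of 8, beside 52.5%. For the 6 genes shorter than 10 kb the counts were 4, beside 51.4%, and 6, beside 59.3%, and for the 2 longer than 500 kb 2 in each, beside 92.6% and 93.9%. The study profiled it to ask whether its binding depends on Chd7. From a comparison of peak signal it reported altered Top2b at a minority of sites upon loss of *Chd7*, some decreased and some increased. Within 50 kb *Sox4* and *Sox1* had peaks in *Chd7*-deficient CGNs only, 1 and 2, as called by presence or absence of a peak and with no measured signal. This depended on the window, since the nearest WT peaks lay 70.5 kb from *Sox4* and 59.9 kb from *Sox1*. Within 100 kb *Sox4* had 1 WT and 3 *Chd7*-deficient peaks, and *Sox1* had 7 and 3. *Sox11* had 1 in WT and 2 in *Chd7*-deficient CGNs, *Sox12* and *Sox2* 2 in each, and *Sox9* 1 in each. For *Sox5* the counts were 5 and 6, and for *Sox6* 3 and 11. Closest to the 50-kb limit were a WT Top2b peak 49.8 kb from *Sox9*, inside it, and one 50.5 kb from *Sox12*, outside it.

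In total the 14 WT and 27 *Chd7*-deficient peaks (Poisson intervals 7.65 to 23.5 and 17.8 to 39.3) gave a ratio of 1.93, while the ratio over all peaks was 1.26. These intervals treat called peaks as independent, although 11 of the 27 lay at *Sox6*. They do not compare the genotypes, which had 1 library each. Without *Sox6* the counts were 11 and 16, a ratio of 1.45. Within 100 kb they were 28 and 35, a ratio of 1.25, which is close to that over all peaks. The peaks of *Sox6* in *Chd7*-deficient CGNs were spread over the gene, 8 in introns, 2 in noncoding exons at 4.345 and 441.0 kb and 1 downstream.

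Few positions were called in both genotypes. Of the WT peaks near these genes 2 of 14 (14.3%, Wilson interval 4.01 to 39.9) overlapped a peak of *Chd7*-deficient CGNs by at least 1 bp, and over all WT peaks it was 16.8%. The shared positions lay in *Sox5* at 499.2 kb and in *Sox6* at 8.748 kb. As called peaks were rarely shared anywhere in the genome, a peak in 1 genotype only is not a measured gain or loss. The overlap of calls is a different measure from the study's comparison of peak signal, and does not give the share of altered sites. H3K27ac of GNPs was overlapped by 4 of 14 WT peaks (28.6%, 11.7 to 54.6, against 17.4% of all) and by 3 of 27 *Chd7*-deficient peaks (11.1%, 3.85 to 28.1, against 26.6% of all).

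At the Chd7 sites, the calls were as follows. The *Sox11* Chd7 peak overlapped a Top2b peak of *Chd7*-deficient CGNs centred 0.529 kb upstream of the start, whereas the WT Top2b peak lay over coding sequence at 1.173 kb. The *Sox2* Chd7 peak overlapped a WT Top2b peak centred at 13.745 kb. At the start of *Sox2*, *Chd7*-deficient CGNs had a peak in the coding sequence at 0.718 kb. At *Sox12* the WT peak was centred at 0.966 kb and the *Chd7*-deficient one 0.072 kb upstream of the start, over the printed sequence. The *Chd7*-deficient peak of *Sox4* lay 5.106 kb upstream, inside the second H3K27ac peak. GNPs and CGNs differ in culture and stage, so that Chd7 and Top2b were not read in the same cells.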

How the data were processed

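The authors trimmed reads with Trim Galore and mapped them to mm10 with Bowtie 1.0.0. They called Chd7 and H3K27ac peaks per library with macs2 defaults and Top2b peaks with homer. Which control macs2 used is not given in the sources used here. The authors deposited a pileup, a coverage signal at the summit, beside the fold enrichment and the −log10 of p and q. The last 3 had lost their decimal points and were divided by 100000, and recomputed −log10 p-values differed by at most 0.0026. The deposited Top2b files hold positions only. Input libraries were not analysed here. The study's methods state a lower bound for the mapped reads, but no table gives the reads per library, so that the depths of the libraries could not be compared.

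Genes, windows and gene lists were chosen with earlier results of these data known. Shares of protein-coding genes served as background. All 8 genes were named, with each Chd7 peak, up to 3 strongest H3K27ac peaks per gene and those at start sites, and Top2b peaks at start sites or Chd7 peaks. Further peaks and values that the text gives beyond this were chosen after they were seen. Alternatives changed peak thresholds, windows, overlaps and stitching. Overlap, window and motif functions were tested on simulated data. Python 3.11.15, pandas 2.3.3, scipy 1.17.1 and pysam 0.24.0 were used.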

Additional observations from a re-analysis of the deposited data

How the results depend on the processing

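Of 38 alternatives, 6 of them added after seeing the data (windows of 250 and 500 kb), 26 left the value within the limit set for a change and 12 moved it. A −log10 q-value of at least 5 left 1 WT Chd7 peak, 1 *Sox* gene with such a peak (*Sox11*) and 21 H3K27ac peaks. The share of Chd7 peaks at H3K27ac became 100%, which is this 1 peak alone. The share of all WT Chd7 peaks at this threshold is not given here. Counting in gene spans only gave 0 WT Chd7 peaks, 8 WT and 17 *Chd7*-deficient Top2b peaks. From 5 kb upstream to 1 kb downstream there was 1 WT Chd7 peak, for 1 gene. Within 100 kb the WT Top2b peaks numbered 28 and those of *Chd7*-deficient CGNs 35, a ratio of 1.25 against 1.93 within 50 kb and 1.26 over all peaks. SE-like regions overlapped 1 gene with start-site peaks left out and 2 when ranked by width times fold enrichment, with no share of all genes under these settings beside them. The cause of these changes was not tested, beyond the smaller or larger windows and the stricter thresholds themselves. Restriction to the stronger Top2b peaks was not run, since the files hold no score. No paired analysis was possible because each condition had 1 sample and no test was made. Peak tables do not show signal below the callers' thresholds, so that the absence of a peak is not the absence of the protein or mark.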
